A study of Homo sapiens with 6 samples.

Results

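The genes described here encode respiratory complexes II, III and IV, the ATP synthase (complex V) and the carrier cytochrome c, in MDA-MB-231 cells, an established human line of triple-negative breast cancer. The members were the protein-coding rows whose symbols name succinate dehydrogenase (SDHA to SDHD) and its assembly factors, ubiquinol-cytochrome c reductase (UQCR, UQCC, CYC1, BCS1L), cytochrome c oxidase (COX followed by a number, SCO1, SCO2, SURF1), ATP synthase (ATP5) and CYCS. They came to 74 of 19957 protein-coding genes among 58656 gene rows, with 1 readthrough row left out. Of the 74, 8 belonged to complex II, 17 to complex III, 29 to complex IV and 19 to complex V, and CYCS stood alone. By role, 48 were subunits and 24 were assembly factors, with CYCS as a carrier and ATP5IF1 as an inhibitor.

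RNA sequencing compared 3 libraries from cells given mitocurcumin at 5 µM for 9 hours with 3 libraries from cells given only the DMSO vehicle for the same 9 hours. Mitocurcumin is a derivative of the plant polyphenol curcumin that is directed to mitochondria. All 6 libraries came from the same line, grown in the same medium, and no other agent or genetic change was applied. The replicates are labelled as biological without saying whether they were separate cultures, so the tests reflect spread among these libraries, which may be technical.

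Electrons enter the chain through complex I, or through complex II, which oxidises succinate in the citric acid cycle. Complex III takes them from ubiquinol to cytochrome c, complex IV passes them from cytochrome c to oxygen, and complex V makes ATP from the proton gradient that pumping by complexes I, III and IV builds. Complex II is encoded wholly in the nucleus, whereas a few core subunits of complexes III, IV and V are encoded in mitochondrial DNA. The table held 0 rows of the mitochondrial chromosome, so only the nuclear genes are described. Assembly factors put in heme, copper and iron-sulfur centres or hold subunits while the complexes form, and as a rule they are not part of the finished enzyme. COX7A2L, counted here with them, differs in that it ties complexes III and IV into supercomplexes.

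Most members differed little between the groups, and those that passed the test split between both directions. Of the 74 members, 69 passed the filter on low counts. Among these, mitocurcumin raised 6 and lowered 5 past an adjusted p of 0.05 (edgeR's quasi-likelihood test, Benjamini-Hochberg adjustment over 16481 genes). That was 15.9% of tested members, where 32.5% of all tested genes were called. By direction, 8.70% of members were higher against 14.7% of all genes, and 7.25% were lower against 17.8%. The protein-coding genes in the same range of levels (3.14 to 108 CPM, counts relative to the scaled total of the library, which leaves out the members at either extreme) were called in 38.1% of cases. The median log2 fold change of the members was 0.09, with quartiles of -0.05 and 0.20, and the median of all tested genes was -0.01. The members' median was 0.05 without control replicate 3 and 0.05 with the length trend of all genes removed. Called and past 1.5-fold were 2 members, COX19 and UQCC5, or 2.9% against 9.74% of all tested genes.

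The genes that rose were COX19, UQCC5, UQCR11, ATP5ME, COX7A2L and ATP5MK, and those that fell were SDHA, COX18, ATP5MC3, COX16 and ATP5F1A. They were spread over all 4 complexes. COX19, UQCR11, COX7A2L, SDHA and ATP5MC3 were called under every one of 20 alternative analyses, and the other 6 were lost in at least 1. The counts depended on single libraries. Without control replicate 1 there were 12 higher members, and without control replicate 2 there were 11 higher and 3 lower. Leaving out mitocurcumin replicate 1 left 2 lower, and leaving out mitocurcumin replicate 2 or 3 left 3 higher and 3 lower.

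A member that missed the threshold is not thereby shown to be unchanged, so the 95% interval of each difference was compared with a 1.5-fold change. In 55 of 69 members, or 79.7%, the whole interval lay within 1.5-fold of control. The same held for 53.8% of all tested genes and 70.4% of protein-coding genes in the same range of levels. Of the 58 uncalled members, 48 were bounded in this way and 10 were not. The groups did not overlap in 25 members, 15 of them with every mitocurcumin library above every control and 10 below, or 36.2% of members against 44.9% of all genes.

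**Figure D1:**
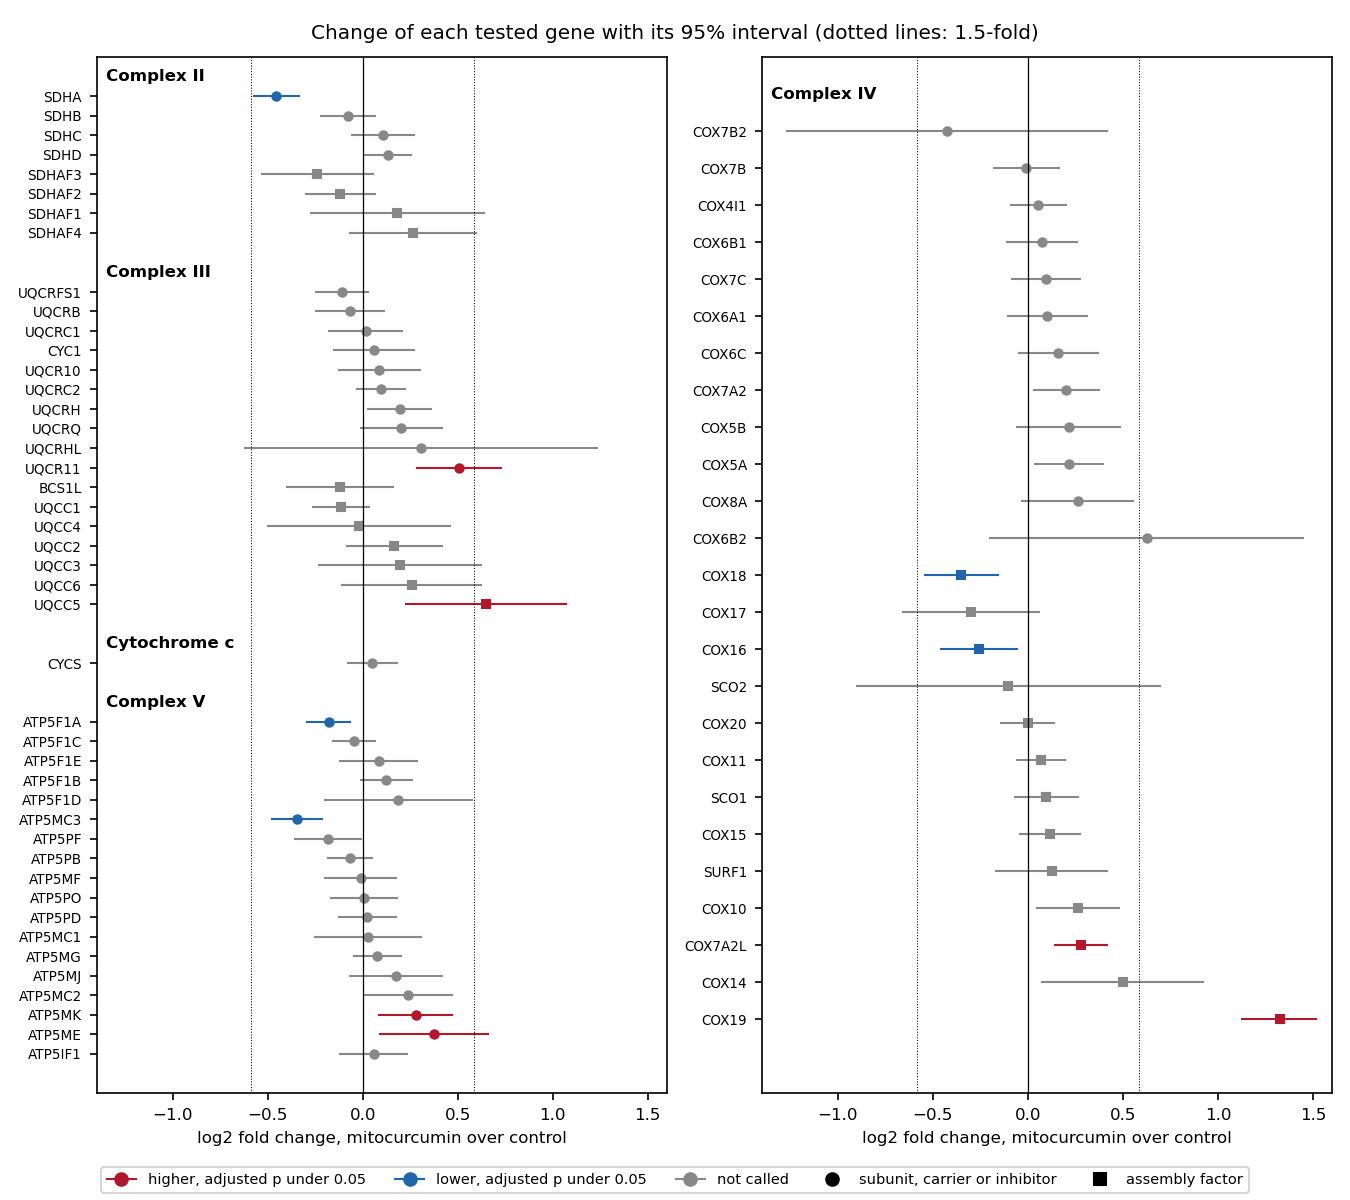
Log2 fold change (mitocurcumin over control) of each of the 69 tested genes with its 95% interval, by complex, with squares for assembly factors and dotted lines at a 1.5-fold change. Red genes rose and blue genes fell at an adjusted p under 0.05; COX19 lies apart at 1.32 and SDHA is the lowest of the genes called, at -0.46.

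Promoters of the nuclear genes of oxidative phosphorylation are known for sites of the nuclear respiratory factors NRF1 and NRF2 (an ETS family factor, also called GABP) and of YY1. The sequences below, from RefSeq on GRCh38.p14, run from 150 bases before to 30 bases after the annotated start. They are shown for SDHA, SDHB and SDHD, subunits of the same complex that differ in outcome, and for UQCR11, COX18 and COX19, which were called. Capitals mark exact matches, on either strand, to GCGCATGCG (NRF1), AAGATGGCG (YY1) or CCGGAAGT (ETS); the NRF1 letters nearly read the same on both strands, so overlapping matches form a single block of capitals.
SDHA, chr5:218170-218349, plus strand: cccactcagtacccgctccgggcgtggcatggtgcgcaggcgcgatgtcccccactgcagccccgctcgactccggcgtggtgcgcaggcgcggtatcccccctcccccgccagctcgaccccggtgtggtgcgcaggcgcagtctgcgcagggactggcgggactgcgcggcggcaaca
SDHB, chr1:17054003-17054182, minus strand: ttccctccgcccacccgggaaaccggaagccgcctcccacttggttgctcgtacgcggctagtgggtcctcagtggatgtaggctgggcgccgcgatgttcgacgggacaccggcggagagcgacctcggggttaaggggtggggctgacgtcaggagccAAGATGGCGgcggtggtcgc
SDHD, chr11:112086723-112086902, plus strand: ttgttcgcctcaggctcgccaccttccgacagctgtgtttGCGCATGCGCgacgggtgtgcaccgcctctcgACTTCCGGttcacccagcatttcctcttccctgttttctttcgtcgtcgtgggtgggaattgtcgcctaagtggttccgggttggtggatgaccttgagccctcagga
UQCR11, chr19:1605433-1605612, minus strand: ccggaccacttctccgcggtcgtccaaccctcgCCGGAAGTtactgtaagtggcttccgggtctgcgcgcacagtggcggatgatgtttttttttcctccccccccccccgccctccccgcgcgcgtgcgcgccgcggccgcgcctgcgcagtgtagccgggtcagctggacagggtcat
COX18, chr4:73069687-73069866, minus strand: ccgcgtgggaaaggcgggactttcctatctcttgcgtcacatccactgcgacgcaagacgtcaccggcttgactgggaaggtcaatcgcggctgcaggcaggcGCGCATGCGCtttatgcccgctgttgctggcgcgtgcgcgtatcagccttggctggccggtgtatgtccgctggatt
COX19, chr7:975520-975699, minus strand: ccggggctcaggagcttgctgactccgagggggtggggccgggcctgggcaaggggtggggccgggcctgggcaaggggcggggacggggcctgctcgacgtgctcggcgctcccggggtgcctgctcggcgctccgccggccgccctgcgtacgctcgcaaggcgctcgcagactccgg

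In the wider window of 250 bases before to 50 after the start, an entry was matched for 59 of the 74 members. The NRF1 letters were present in 8 of the 59, or 13.6%, against 3.54% of 11364 tested protein-coding genes and 2.1% of all 27305 promoters. The ETS letters were present in 13, or 22.0%, against 8.38% and 4.44%, and the YY1 letters in 5, or 8.47%, against 3.7% and 1.85%. The NRF1 letters lay in ATP5ME, which rose, in COX18, which fell, and in 6 uncalled members. Among members with an entry, the ETS letters lay in 2 of 6 that rose, 0 of 4 that fell and 11 of 47 that were uncalled. All 5 members with the YY1 letters were among those 47. TGATGNAA, the core of the element bound by the stress factor ATF4 with a partner, was searched after the values were seen. It was in 0 of the 59 member windows, 1.87% of tested protein-coding ones and 3.67% of all promoters. At shares this low, 59 windows are too few for a count of 0 to set the members apart. A match is a description of letters in this window and not a bound site.

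Complex II held the member with the lowest log2 fold change of all those tested. SDHA, the flavoprotein that oxidises succinate (Entrez 6389, chromosome 5, 218320 to 257082, GRCh38), had 140.7, 138.6 and 140.2 CPM in control replicates 1 to 3. Its mitocurcumin libraries held 107.2, 97.01 and 101.8 CPM. The control libraries lay close together and every mitocurcumin library was below them, a log2 fold change of -0.46 ± 0.06 (SE, n = 3 and 3; edgeR adjusted p = 1.0e-05), or 0.730-fold. SDHB, the iron-sulfur subunit that takes electrons on from SDHA, had 61.61, 57.77 and 58.83 CPM in control and 53.81, 57.58 and 57.47 after mitocurcumin. Its difference of -0.08 had an interval of -0.22 to 0.06 and was not called, although the groups narrowly failed to overlap.

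The membrane anchors SDHC and SDHD, which hold the heme and the quinone site, had estimates above 0. SDHC had 52.16, 44.7 and 46.76 CPM in control and 52.4, 53.41 and 48.81 CPM after mitocurcumin, which overlap (0.11, interval -0.06 to 0.27). SDHD went from 99.45, 103.9 and 94.33 CPM to 107.9, 110.1 and 108.0, with all mitocurcumin libraries higher, a difference of 0.13 that missed the threshold (edgeR adjusted p = 0.094). The 4 subunits together summed to 346.3 ± 6.98 CPM in control and 318.5 ± 2.68 after mitocurcumin (SD, n = 3), with SDHA the only one of the 4 that was called. The 4 assembly factors SDHAF1 to SDHAF4, which fit the flavin and iron-sulfur centres, were all uncalled, between -0.24 and 0.26, and 2 of their 4 intervals reached beyond 1.5-fold.

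SDHA has transcribed pseudogenes of near-identical sequence, and reads could be split between them. The 4 rows SDHAP1 to SDHAP4 together held 41.5 CPM in control and 38.24 CPM after mitocurcumin, and none was called (log2 fold changes of -0.17 to -0.04). Their share of the CPM of SDHA and its pseudogenes together was 22.9% in control and 27.3% after mitocurcumin. Of all 50-base stretches in annotated SDHA transcripts, 8.59% also occur in transcripts of other genes. For other members the rows of such copies held next to no counts. With SDHA included, 35 members had named pseudogene rows, and in 32 of the 35 all these rows were at 0 in every library. A row at 0 does not show where reads from such a copy were counted. How the counting treated reads that match both a member and its copies was not given in the sources used here.

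Complex III had 2 members that rose and none that fell among 17 tested, or 11.8% called against 32.5% of all tested genes. UQCR11, a small membrane subunit of the complex (Entrez 10975, chromosome 19, 1597169 to 1605462), had 13.01, 14.93 and 12.97 CPM in control and 20.01, 19.35 and 18.84 CPM after mitocurcumin. Every mitocurcumin library exceeded every control by a clear margin (0.51 ± 0.11, edgeR adjusted p = 0.0013). UQCC5, an assembly factor of the complex (Entrez 440957, chromosome 3, 52536605 to 52541890), was among the least abundant members. It rose from 2.331, 3.596 and 2.944 CPM to 4.366, 4.902 and 4.676 CPM (0.65 ± 0.20, edgeR adjusted p = 0.018), and lost its call without mitocurcumin replicate 2 or 3.

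The catalytic and core subunits of complex III were uncalled and tightly bounded. CYC1, the cytochrome c1 that hands electrons to cytochrome c, differed by 0.06 (interval -0.15 to 0.27). UQCRFS1, the Rieske iron-sulfur protein, had 64.92, 65.5 and 64.29 CPM in control and 60.32, 63.21 and 57.26 after mitocurcumin, all lower, but the difference of -0.11 was not called (edgeR adjusted p = 0.23). The core proteins UQCRC1 and UQCRC2 differed by 0.02 and 0.10. BCS1L, the chaperone that places the Rieske protein into the complex, differed by -0.12 (interval -0.40 to 0.16). In all, 8 of the 10 tested subunits had estimates above 0, with a median of 0.09.

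CYCS, the carrier between complexes III and IV and, once released to the cytosol, a trigger of apoptosis, was level between the groups (Entrez 54205, chromosome 7, 25118656 to 25125260). It had 242.5, 277.5 and 265.0 CPM in control and 257.8, 270.1 and 285.1 CPM after mitocurcumin. The libraries overlap widely, and the log2 difference of 0.05 had an interval of -0.08 to 0.18 (edgeR adjusted p = 0.57). These are mRNA levels and hold no information on where the protein lies. Of 3 other genes listed with cytochrome c, APAF1, its partner in the apoptosome, fell from 75.51, 77.34 and 73.59 CPM to 63.15, 68.37 and 59.58 CPM (-0.25 ± 0.07, edgeR adjusted p = 0.0091). APAF1 was not followed through the alternatives. HCCS (0.105) and CASP9 (0.176) were not called.

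In complex IV, none of the 12 subunits tested as members was called. The 4 members that were called made up 16% of the 25 tested, against 32.5% of all tested genes. All 4 are counted here with the assembly factors, COX7A2L among them. At an unadjusted p under 0.05 there were 2 of the 12 subunits, COX5A and COX7A2, and DESeq2 called 1 of the 12. NDUFA4 is listed with complex IV but not taken by the membership rule. It rose from 38.05, 41.18 and 35.54 CPM to 41.36, 48.97 and 49.29 CPM (0.28 ± 0.09, edgeR adjusted p = 0.021). It was not followed through the alternatives. Of the 12 subunits, 10 had estimates above 0, where 49.3% of all tested genes did, and 10 had intervals within 1.5-fold. Their median was 0.13, and it was 0.07 without control replicate 3 and 0.07 with the length trend of all genes removed. COX4I1, the ubiquitous form of the subunit through which ATP inhibits the enzyme, had 90.13, 87.78 and 83.62 CPM in control and 85.79, 85.46 and 100.5 after mitocurcumin (0.06, interval -0.09 to 0.20). COX5A had 35.17, 38.24 and 35.71 CPM in control and 39.78, 40.28 and 46.49 CPM after mitocurcumin, with no overlap, and came close to the threshold (0.21 ± 0.08, edgeR adjusted p = 0.063). COX7A2 (0.20, adjusted p = 0.067), COX5B (0.21, adjusted p = 0.22) and COX6A1 (0.10, adjusted p = 0.47) were not called in the same edgeR test. Upper-quartile scaling, the higher expression filter, protein-coding rows alone and a replicate term each brought COX5A and COX7A2 past the threshold. Without control replicate 2, 3 subunits passed it, COX5B among them at a log2 fold change of 0.398.

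Paired isoforms of several complex IV subunits differ between tissues, and the forms of muscle, lung and testis were close to absent in these cells. COX4I2, the form known from lung and from hypoxic cells, had 1 count over all 6 libraries. COX6A2, the heart and muscle form, had 0 counts in every library, which allows at most 3 counts per library or 0.103 to 0.130 CPM (counting error only). COX7A1, the other muscle form, had 34 counts in all, 18 of them in mitocurcumin replicate 3. COX8C had 1 count, and ATP5MGL, a second copy of a complex V subunit, had 43. These 5 members were not tested. COX6B2 and COX7B2, known from testis, had 110 and 107 counts in all and were tested and uncalled with wide intervals (-0.20 to 1.45 and -1.27 to 0.42). Muscle markers were likewise near 0: MYH7 and TNNT2 had none, and ACTA1 and CKM stayed at or below 0.427 CPM.

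COX19 had by far the greatest change of any member. It encodes a small protein that takes part in delivering copper to complex IV (Entrez 90639, chromosome 7, 964852 to 975549). Its level was 12.97, 13.84 and 13.82 CPM in control and 34.24, 34.4 and 33.12 CPM after mitocurcumin, so replicates within a group differed little and the groups were far apart. The log2 fold change was 1.32 ± 0.09 (edgeR adjusted p = 1.4e-08), or 2.50-fold, and ran from 1.26 to 1.35 over the 20 alternatives. No other row overlapped COX19. Its nearest neighbours did not move with it: ADAP1 was at 0.7352 CPM in control and 0.7562 after mitocurcumin, and C7orf50 at 17.55 and 15.57 CPM, both uncalled. The annotation places 20.8% of the 50-base stretches of COX19 transcripts in ADAP1 transcripts as well.

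Of the other copper-handling members, COX17, SCO1, SCO2 and COX11 were not called. COX17, the copper donor that feeds SCO1 and COX11, had 9.407, 14.93 and 11.18 CPM in control and 7.964, 11.34 and 9.665 CPM after mitocurcumin, overlapping groups with an uncalled difference of -0.30 (interval -0.66 to 0.06). SCO1, which loads a copper centre of the oxidase, had 61.31, 76.29 and 73.93 CPM in control and 73.82, 80.21 and 72.5 CPM after mitocurcumin (0.10, interval -0.07 to 0.27). SCO2 was too low to judge, at 0.7347 to 1.577 CPM over all libraries, with an interval of -0.90 to 0.70, and it overlaps TYMP and NCAPH2. COX11, which loads the other copper centre, was at 69.03 to 71.69 CPM in control and 72.69 to 75.55 CPM after mitocurcumin, a small separation that was not called (0.07, interval -0.06 to 0.20). On the opposite strand it overlaps TOM1L1, which rose by 0.92, by 10055 bases, and STXBP4, which fell by 0.70, by 21 bases. Counts of these overlaps cannot be assigned to either gene if strand was not used. The COX17 log2 fold change depended on single libraries: it was -0.438 (edgeR adjusted p = 0.015) without control replicate 1, -0.088 (adjusted p = 0.741) without control replicate 2 and -0.165 (adjusted p = 0.564) without mitocurcumin replicate 1.

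COX7A2L rose by a small and steady amount. It is related to COX7A2 and ties complexes III and IV into supercomplexes, and is counted here with the assembly factors (Entrez 9167, chromosome 2, 42335559 to 42368957). It had 76.99, 67.13 and 74.91 CPM in control and 86.03, 88.65 and 90.83 CPM after mitocurcumin, with no overlap (0.28 ± 0.07, edgeR adjusted p = 0.0032). The heme A pathway, which makes the heme of complex IV, had estimates above 0 in COX10 and COX15. COX10, which farnesylates heme, had 20.64, 17.71 and 17.45 CPM in control and 23.37, 22.08 and 21.48 CPM after mitocurcumin. These did not overlap, and the difference of 0.26 missed the threshold (edgeR adjusted p = 0.059) but passed it in 9 of the 20 alternatives. COX15, the next enzyme, differed by 0.12 (edgeR adjusted p = 0.26), and SURF1, which aids heme insertion, by 0.13 (edgeR adjusted p = 0.54).

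COX18 and COX16, which help to insert the mitochondrially encoded subunit 2 into the membrane and to mature it, both fell. COX18, the insertase (Entrez 285521, chromosome 4, 73052362 to 73069759), had 27.75, 29.16 and 29.69 CPM in control and 21.1, 23.78 and 23 CPM after mitocurcumin (-0.35 ± 0.09, edgeR adjusted p = 0.0064). The groups were separate, and of the 20 alternatives only that without mitocurcumin replicate 1 took the adjusted p above the threshold, to 0.0545. COX16 (Entrez 51241, chromosome 14, 70325081 to 70359683) had 23.69, 23.2 and 25.21 CPM in control and 20.46, 18.92 and 20.89 CPM after mitocurcumin. Its call was marginal (-0.26 ± 0.10, edgeR adjusted p = 0.047) and was lost in 13 of the 20 alternatives, including without control replicate 2 or 3 and without any one mitocurcumin library. It shares exons with the readthrough row SYNJ2BP-COX16, which also fell (-0.30), and 30.2% of its 50-base stretches occur there, so reads from the shared part cannot be assigned to either row. Summed over the 13 assembly factors of complex IV, the level was 447.1 ± 8.73 CPM in control and 488.6 ± 6.88 CPM after mitocurcumin (SD, n = 3). Most of that difference lay in COX19, with means of 13.54 and 33.92 CPM, and COX7A2L, with means of 73.01 and 88.5 CPM, and 5 of the 13 had estimates below 0.

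**Figure D2:**
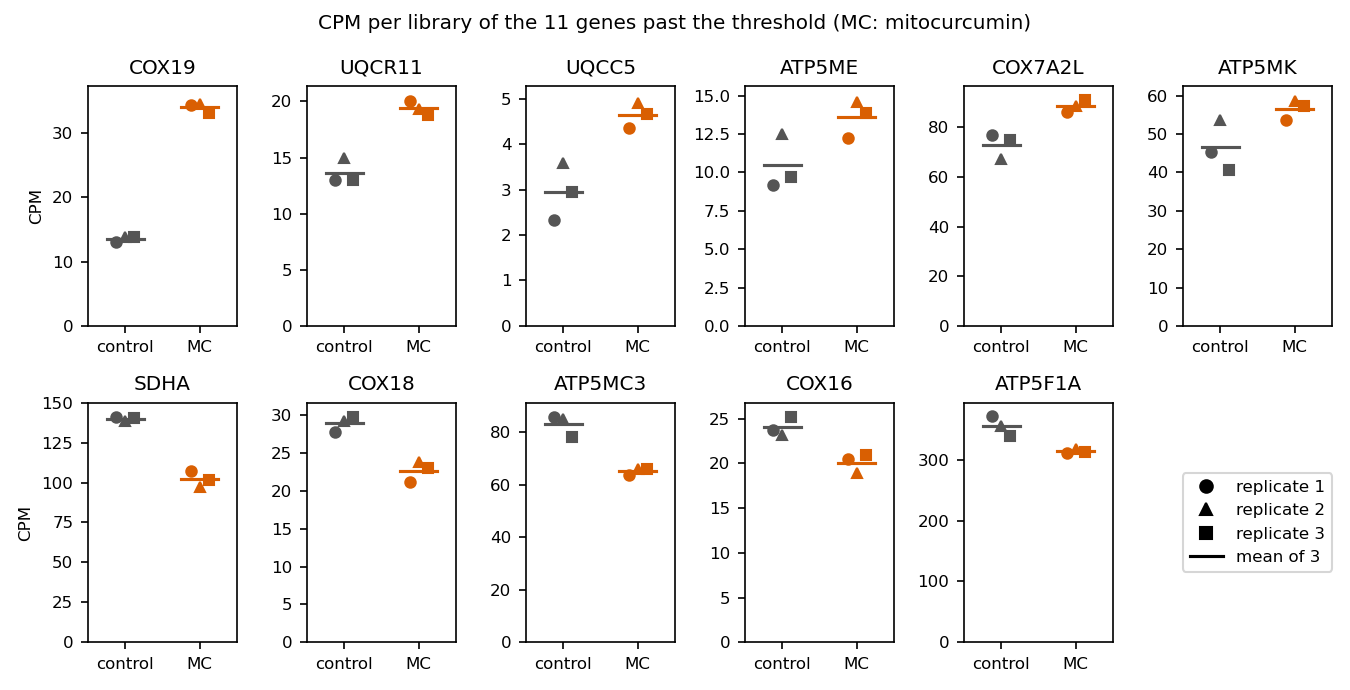
CPM in each library of the 11 genes called, with 1 panel per gene, an axis from 0, a symbol per replicate and a line at the mean of 3. All genes but ATP5ME show no overlap between control and mitocurcumin (MC), and COX19, at no more than 13.84 in control and at least 33.12 after mitocurcumin, has the greatest gap as a ratio.

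Complex V had 2 genes that rose and 2 that fell among 18 tested, or 22.2% called against 32.5% of all tested genes. In the catalytic F1 head, ATP5F1A, the alpha subunit (Entrez 498, chromosome 18, 46080248 to 46104227), fell from 371.8, 354.4 and 338.7 CPM to 310.4, 317.6 and 312.6 CPM. Control libraries were spread and the mitocurcumin libraries were tight, all below the lowest control (-0.18 ± 0.05, edgeR adjusted p = 0.015). The call was lost without control replicate 2 and without any one of the mitocurcumin libraries. ATP5F1B, the catalytic beta subunit, had 336.6, 295.7 and 294.7 CPM in control and 357.9, 321.4 and 331.8 CPM after mitocurcumin, an uncalled difference in the other direction (0.13 ± 0.06, edgeR adjusted p = 0.14), and passed the threshold without control replicate 1. The gamma subunit ATP5F1C, the rotor shaft, differed by -0.04 (interval -0.16 to 0.07). The 5 F1 genes summed to 870.8 ± 43.5 CPM in control and 855.2 ± 15.9 CPM after mitocurcumin.

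The rotor ring of complex V is built from subunit c, which 3 genes encode with the same mature protein and different import sequences. ATP5MC3, the most abundant of these in counts (Entrez 518, chromosome 2, 175176258 to 175181710), fell from 85.85, 84.88 and 78.24 CPM to 63.84, 65.98 and 66.13 CPM. The lowest control stood well above the highest mitocurcumin library (-0.35 ± 0.06, edgeR adjusted p = 0.00041). ATP5MC1 had 18.48, 13.42 and 13.1 CPM in control and 16.37, 14.79 and 14.72 CPM after mitocurcumin (0.03, interval -0.25 to 0.31). ATP5MC2 had 24.83, 21.54 and 19.75 CPM in control and 23.25, 28.34 and 26.46 CPM after mitocurcumin, an uncalled difference of 0.24 (edgeR adjusted p = 0.10) that passed the threshold without control replicate 1. Of the 3 genes, ATP5MC3 was the only one called.

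ATP5ME and ATP5MK, small membrane subunits of the part of ATP synthase that joins its dimers, rose by modest amounts. ATP5ME (Entrez 521, chromosome 4, 672436 to 674276) had 9.195, 12.49 and 9.684 CPM in control and 12.25, 14.62 and 13.89 CPM after mitocurcumin, and control replicate 2 overlapped mitocurcumin replicate 1 (0.38 ± 0.14, edgeR adjusted p = 0.042). ATP5MK (Entrez 84833, chromosome 10, 103389050 to 103396475) had 45.42, 53.67 and 40.7 CPM in control and 53.73, 58.65 and 57.26 CPM after mitocurcumin (0.28 ± 0.09, edgeR adjusted p = 0.025). The highest control and the lowest mitocurcumin library of ATP5MK were almost equal. Both calls were lost without control replicate 3 and without mitocurcumin replicate 2 or 3, and that of ATP5ME also without control replicate 1. ATP5MK overlaps the opposite-strand gene TAF5 by 16 bases. ATP5PO, which ties the head to the stator, differed by 0.01 (interval -0.17 to 0.18), and ATP5IF1, which blocks reverse ATP hydrolysis, by 0.06 (interval -0.12 to 0.23).

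Ratios within a library put these differences beside partner genes without any scaling between libraries. They were chosen after the values were seen. An exact permutation test gave p = 0.8 for COX7A2L over COX7A2 and p = 0.1 for each of the other ratios. With 3 libraries in each group that test cannot go below 0.1, so it cannot decide, and the ratios are given as a description. SDHA over SDHB was 2.28, 2.40 and 2.38 in control and 1.99, 1.68 and 1.77 after mitocurcumin. ATP5MC3 over ATP5MC2 was 3.46, 3.94 and 3.96 in control and 2.75, 2.33 and 2.50 after mitocurcumin. ATP5F1A over ATP5F1B was 1.1, 1.2 and 1.15 in control, above 1 in each library, and 0.867, 0.988 and 0.942 after mitocurcumin, below 1 in each. COX19 over COX17 stood apart, at 0.927 to 1.38 in control and 3.03 to 4.30 after mitocurcumin. COX7A2L over COX7A2, by contrast, overlapped between the groups, at 1.41 to 1.84 in control and 1.64 to 1.92 after mitocurcumin.

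**Figure D3:**
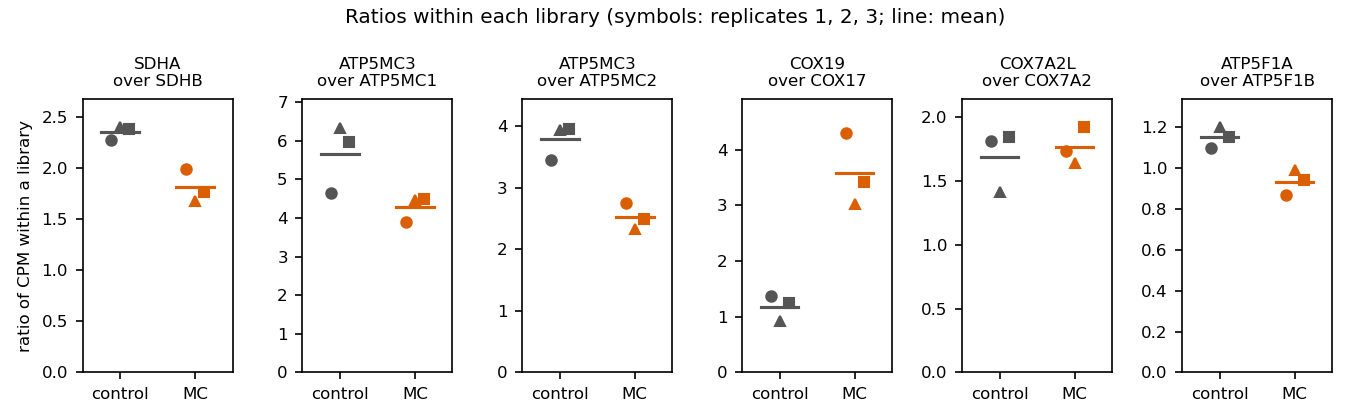
Ratio of CPM between 2 genes within each library, in 6 panels with axes from 0, a symbol per replicate and a line at the mean. In 5 panels control and mitocurcumin (MC) libraries are separate, and COX7A2L over COX7A2 overlaps.

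Levels between genes were compared as CPM per kilobase of 1 annotated transcript for each gene, and the order depends on that choice: ATP5F1A was given 5818 bases and ATP5F1B 1839, although ATP5F1A had more CPM. On this scale ATP5F1B led the members in control at 168.0, followed by ATP5MF at 160.9, ATP5F1C at 152.8 and COX4I1 at 123.1. CYCS was at 63.85, near ATP5F1A at 61.01 and SDHA at 58.51, and after mitocurcumin SDHA was at 42.68. Subunits had a median of 37.3 CPM per kilobase over 43 tested genes, and assembly factors a median of 6.9 over 24. COX7A2L, at 65.66, was the highest of the assembly group, and SCO2, at 1.177, the lowest. The summed level of all members was 3738 ± 123 CPM in control and 3793 ± 60.2 CPM after mitocurcumin (SD, n = 3), a difference smaller than the control spread.

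Among members, the shortest proteins had the highest fold changes as a group. Of the 23 tested members with proteins of up to 100 residues, 5, or 21.7%, rose (COX19, UQCC5, UQCR11, ATP5ME and ATP5MK) and none fell. Of all protein-coding genes of that length, 18.4% rose and 8.48% fell. The 23 members had a median log2 fold change of 0.20. Of the 8 members over 400 residues, none rose and 2 fell (SDHA and ATP5F1A), or 25% against 24.3% of all protein-coding genes of that length. The median did not fall steadily with length: it was -0.06 in the 12 members of 200 to 400 residues and 0.06 in those 8. Over the 69 genes, log2 fold change and protein length had a Pearson r of -0.37 and a Spearman rho of -0.40, a description across genes that share the same 6 libraries. Against transcript length the relation was weaker (r = -0.11, rho = -0.21). A weaker relation of the same sign was present over all 13805 protein-coding genes with a length (r = -0.10, rho = -0.13). The 283 protein-coding genes up to 100 residues had a median of 0.07.

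One library moved with this pattern. Among the 23 small-protein members the median deviation from each gene's mean was -0.27 on the log2 scale in control replicate 3, against -0.01 and 0.03 in the other 2 controls and 0.05 to 0.16 in the mitocurcumin libraries. Control replicate 3 was also the lowest library over all 69 tested members (-0.129) and over all 283 protein-coding genes up to 100 residues (-0.08). In the 20 members over 200 residues it was at -0.018. Without control replicate 3, 3 of the 23 rose and the median was 0.13. Without control replicate 1, 8 rose and 1 fell, and without control replicate 2, 8 rose and 0 fell. Without mitocurcumin replicate 2 or 3, 2 rose. With the length trend of all genes removed, 3 of the 23 rose, and ATP5ME and ATP5MK were no longer called. The part of library make-up in the pattern was not tested further.

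**Figure D4:**
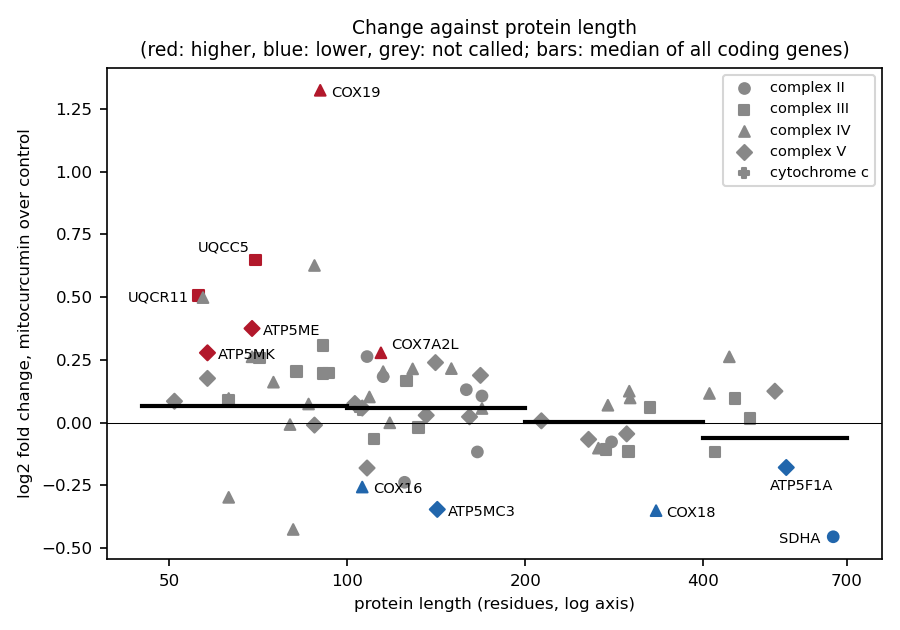
Log2 fold change (mitocurcumin over control) of each tested member against the length of its protein in residues (log axis), with 1 marker shape per complex and black bars at the median of all protein-coding genes in each of 4 length bins. The red genes that rose are at the left, COX7A2L being the longest of them at 114 residues, and SDHA, at 664, is the lowest at the right.

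Other genes of the respiratory chain were called in both directions. Of 62 such genes (coenzyme Q synthesis, further assembly factors, heme and iron-sulfur supply, other enzymes that reduce ubiquinone), 61 were tested, 8 were higher and 5 lower, with a median of 0.05. That is 21.3% beside 32.5% of all tested genes. Without mitocurcumin replicate 2 or 3, 4 were higher, and without control replicate 3 or mitocurcumin replicate 1, 5. Without mitocurcumin replicate 1 or 3, 3 were lower. HSPA9, the mitochondrial HSP70 that also serves iron-sulfur transfer, rose from 508.7, 623.4 and 642.5 CPM to 912.5, 861.1 and 938.6 CPM (0.61 ± 0.08, edgeR adjusted p = 1.2e-05). NFS1, the cysteine desulfurase that supplies the sulfur of iron-sulfur clusters, fell from 29.2, 24.82 and 25.26 CPM to 18.07, 19.44 and 19.99 CPM (-0.46 ± 0.10, edgeR adjusted p = 0.0017). Its partner LYRM4 rose (0.43 ± 0.10, edgeR adjusted p = 0.0022), but lies opposite the noncoding LYRM4-AS1, which fell. Of the further complex IV assembly factors, COA8, COA5 and PET117 rose by 0.41, 0.33 and 0.41. COA8 was called in all 20 alternatives, whereas COA5 was lost in 7, among them those without any one mitocurcumin library or without control replicate 2 or 3, and PET117 in 5, among them those without mitocurcumin replicate 1 or 2. PET117 lies within the locus of KAT14 on the same strand, which fell by 0.23.

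CMC1, another complex IV assembly factor, fell by 0.74 on the log2 scale, from 31.02, 29.39 and 31.91 CPM to 20.05, 16.49 and 18.74 CPM. It overlaps AZI2 on the opposite strand by 4096 bases, and AZI2 rose by 0.94, so counts of the overlap cannot be assigned to either gene if strand was not used. GPD2, which reduces ubiquinone with electrons from glycerol 3-phosphate and so enters the chain beside complex II, fell from 122.2, 123.3 and 133.0 CPM to 87.61, 92.4 and 90.44 CPM, with a clear gap between the groups (-0.48 ± 0.06, edgeR adjusted p = 6.6e-06). Of the 13 coenzyme Q genes, PDSS1, which makes the side chain, was the only one called (-0.33 ± 0.11, edgeR adjusted p = 0.032). That is 7.69% of them against 32.5% of all tested genes. The PDSS1 call was lost in 6 of the 20 alternatives, including without control replicate 2 or any one mitocurcumin library. FMC1, an ATP synthase assembly factor, rose by 0.63 at 2.397 to 4.944 CPM. It was lost in 5 alternatives, including without control replicate 2 or 3 or mitocurcumin replicate 2 or 3, and shares its locus with a readthrough to LUC7L2.

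Complex I subunits and mitochondrial ribosomal proteins served as sets of like kind, with 32.5% of all tested genes called. Of 36 tested complex I subunits, 5 were higher and 4 lower, or 25%, with a median of 0.02. Of 78 mitochondrial ribosomal proteins, 4 were higher and 4 lower, or 10.3%, with a median of -0.02. The difference of these shares from that of the members was not tested.

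The libraries held 23146822 to 29104681 counts in total, and members took 0.358% to 0.386% of them. Over all tested genes 2425 were higher and 2938 lower, with a biological coefficient of variation of 8.43% between replicates. Markers known from this line were high, with VIM at 2150 to 2380 CPM and CD44 at 2021 to 2134, while ESR1 and PGR stayed at or below 0.348 CPM. ERBB2, which encodes HER2, was present at 30.27 to 48.65 CPM. SPARC, also listed as a marker of such mesenchymal-like cells, was at 0.0852 to 0.939 CPM. Blood markers were low, with PTPRC at no more than 1.44 CPM and HBB at 0.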

How the data were processed

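The labels' protocols describe poly(A) capture and stranded KAPA libraries. The submitters' processing notes name GRCh38 as build. The aligner, the counting tool and the strand setting are each not given in the sources used here. As deposited, the raw table gives estimated counts for each gene, with 20.15% to 21.37% of values above 0 whole. The second table the authors deposited holds log2 values, which above 0 equalled log2 of the raw count over a single factor for each library (tolerance 0.001).

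Estimated counts were rounded, since the design assumed a count table, and compared with edgeR 4.0.16 under R 4.3.3 (quasi-likelihood F-test, robust, TMM scaling, filterByExpr with a minimum count of 10 and total of 15). Group was the only term, and p-values were adjusted by Benjamini-Hochberg over 16481 genes at a threshold of 0.05. CPM used TMM-scaled totals. The SE was taken as coefficient over root F, and 95% intervals use the t quantile at the total residual degrees of freedom. No library was a duplicate: replicates of a group differed beyond sampling noise (chi-square per gene between 5.31 and 18.7). The fit was tested on simulated counts, with 97 genes changed by 1.25-fold and 98 by 1.5-fold. That is far fewer than were called in the real data. It recovered 32% of the 1.25-fold and 60.2% of the 1.5-fold changes. Of its 99 calls, 9 were of genes given no change. Lengths and the 50-base stretches of transcripts were taken from GENCODE 29, in place of a protein table that was not used here, and motifs were searched as exact letters.

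The 20 alternatives covered scaling, filtering, DESeq2 1.42.0, limma 3.58.1 (voom, and on the deposited log2 values), a replicate term, protein-coding rows, the length trend, unrounded counts, a threshold of 0.01 and leaving out libraries. The members, the gene lists and the tests were chosen with earlier results of these data known. The text names every called member, 34 members whatever their result, and up to 10 called genes of the wider list. NDUFA4, others named in counts of 5 or fewer, and the top of the order by level were chosen after their values were seen.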

Additional observations from a re-analysis of the deposited data

How the results depend on the processing

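COX19, UQCR11, COX7A2L, SDHA and ATP5MC3 were called in the same direction under all 20 alternatives. The number of higher members, 6, became 11 with upper-quartile scaling, 10 with a filter of 1 CPM in 3 libraries, 10 with protein-coding rows alone and 3 at an adjusted p under 0.01. It ranged from 3 to 12 with 1 library left out, and was 12 without control replicate 1 and mitocurcumin replicate 2 together (chosen after seeing the data). The 5 lower members became 3 at the stricter threshold and ranged from 2 to 7 with 1 library left out. Among the other respiratory chain genes, the 8 higher became 3 at the stricter threshold and ranged from 4 to 10 with libraries left out, and the 5 lower ranged from 3 to 5. The cause of these shifts was not tested, beyond fewer libraries or a stricter threshold by construction.

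Same-numbered libraries did not deviate together (correlations of 0.101, 0.017 and -0.01), so the numbers were not taken as pairs. A replicate block gave 10 higher members, adding COX10, COX5A, COX7A2 and UQCRH.

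Direction changed only in named members that were not called. With the length trend removed, the ATP5PO log2 fold change was -0.014, and ATP5IF1 was at -0.005, ATP5MC1 at -0.02 and CYCS at -0.013. With libraries left out, 1 at a time or the pair named above, log2 fold changes ranged from -0.045 to 0.238 for ATP5MC1, -0.053 to 0.11 for ATP5PO, -0.201 to 0.02 for BCS1L, -0.026 to 0.132 for COX4I1, -0.006 to 0.202 for COX6A1, -0.008 to 0.189 for CYC1, -0.001 to 0.1 for CYCS, -0.028 to 0.163 for SCO1, -0.4 to 0.147 for SCO2 and -0.035 to 0.187 for UQCRC1.

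Of 58 uncalled members, 10 had intervals reaching beyond 1.5-fold, among them SCO2, COX6B2, COX7B2 and UQCRHL, which had few counts, and COX17, whose replicates were spread. Depth and replicate spread were not separated.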
